A study of Mus musculus with 12 samples.

Results

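The 10 genes described here lie close together on mouse chromosome 7, and their RNA was read in marker-gated cell classes of 3xTg-AD and WT hippocampus. They are Ercc1, Ccdc61, Ceacam20, Gipr, Mill2, Nanos2, Pglyrp1, Ppm1n, Gm16251 and Gm19345, 10 of the 32285 genes counted. They were chosen by their difference in RNA level between the genotypes in excitatory neurons, so values of that class are a description without a test. The question is whether the same genes differ in the other classes and at both ages.

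Nuclei came from the left hippocampus of female mice and were sorted before droplet-based snRNA-seq, which counts transcripts as unique molecular identifiers (UMIs). 3xTg-AD mice carry transgenes for human APP with the Swedish mutation and for human tau (MAPT) with a dementia mutation, both driven by the mainly neuronal Thy1 promoter, on a mixed B6 and 129 background. WT mice were littermates, and the labels name no treatment. Each genotype has 3 libraries at 6 months and 3 at 12 months. Values per library follow the library numbers, which are 1, 5 and 9 for 6-month 3xTg-AD, 3, 7 and 11 for 6-month WT, 2, 6 and 10 for 12-month 3xTg-AD, and 4, 8 and 12 for 12-month WT.

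Genes that sit side by side on a chromosome are inherited together, and laboratory strains such as B6 and 129 carry different alleles along such stretches. Neighbours can share regulatory DNA, although they need not be expressed in the same cells. The genes of this neighbourhood have unrelated roles. Ercc1 is the partner of Ercc4 in the nuclease that cuts damaged DNA in nucleotide excision repair. Ccdc61 is a protein of centrioles and basal bodies, and Nanos2 is an RNA-binding protein of male germ cells. Gipr is the receptor of the incretin hormone GIP, Pglyrp1 is a secreted protein that binds bacterial peptidoglycan, and Ppm1n belongs to the metal-dependent protein phosphatases. Mill2 is a surface molecule that resembles MHC class I, and Ceacam20 is an adhesion molecule of the carcinoembryonic antigen family. Gm19345 is a predicted gene and Gm16251 is annotated as an antisense RNA.

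The 10 genes span 1151139 bases on GRCm38, and 62 other counted genes lie between the outermost of them. Mill2 lies at chr7:18839966-18865402 on the plus strand, Pglyrp1 at chr7:18871331-18890459 on the plus strand and Ccdc61 at chr7:18890883-18910415 on the minus strand, with 423 bases between the last pair. Nanos2 (chr7:18987400-18988962, plus), Gipr (chr7:19156061-19166127, minus), Ppm1n (chr7:19276805-19280064, minus) and Ercc1 (chr7:19344778-19356524, plus) follow. After a gap of 495478 bases come Gm19345 (chr7:19852003-19858350, plus), Gm16251 (chr7:19920729-19927607, plus) and Ceacam20 (chr7:19965412-19991104, plus). No gene overlaps a member on the same strand. On the opposite strand, Gm45058 overlaps Nanos2, Cd3eap overlaps Ercc1, Ceacam16 overlaps Gm19345 and Pvr overlaps Gm16251. How strand was used in counting is not given in the sources used here, so the counts of these 4 members carry that uncertainty.

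The start regions of 4 members that the comparisons turn on are shown so that members with opposite directions can be set side by side: Ccdc61, Pglyrp1 and Ercc1 were lower in 3xTg-AD inhibitory neurons at 6 months and Mill2 was higher. Each line gives the 250 bases before the transcription start, read along the gene, from RefSeq on GRCm38.p6. Capitals mark matches on either strand to the GC box GGGCGG, the CCAAT box CCAAT, the TATA box TATAAA and the E box CACGTG.
Ccdc61, chr7:18910405-18910654, minus strand: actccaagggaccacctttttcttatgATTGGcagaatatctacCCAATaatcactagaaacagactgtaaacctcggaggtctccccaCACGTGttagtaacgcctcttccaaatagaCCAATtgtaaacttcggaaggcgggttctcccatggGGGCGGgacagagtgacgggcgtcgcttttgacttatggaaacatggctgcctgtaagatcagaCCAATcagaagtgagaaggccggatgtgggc
Pglyrp1, chr7:18884440-18884689, plus strand: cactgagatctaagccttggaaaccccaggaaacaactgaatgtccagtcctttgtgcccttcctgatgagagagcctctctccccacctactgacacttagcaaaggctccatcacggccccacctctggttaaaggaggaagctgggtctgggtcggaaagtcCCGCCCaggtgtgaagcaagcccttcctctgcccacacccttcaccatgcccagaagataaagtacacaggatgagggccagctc
Ercc1, chr7:19344821-19345070, plus strand: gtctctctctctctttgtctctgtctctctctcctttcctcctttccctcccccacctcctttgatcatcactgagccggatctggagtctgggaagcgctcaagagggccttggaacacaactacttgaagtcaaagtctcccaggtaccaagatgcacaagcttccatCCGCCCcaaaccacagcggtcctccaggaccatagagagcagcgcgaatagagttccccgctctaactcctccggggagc
Mill2, chr7:18839716-18839965, plus strand: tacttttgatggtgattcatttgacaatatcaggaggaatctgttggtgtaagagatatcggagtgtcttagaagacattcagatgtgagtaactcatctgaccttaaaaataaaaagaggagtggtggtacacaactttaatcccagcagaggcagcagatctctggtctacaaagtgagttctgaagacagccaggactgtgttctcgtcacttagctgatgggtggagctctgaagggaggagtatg
The Ccdc61 region held 4 CCAAT boxes, 1 GC box and 1 E box. The regions of Pglyrp1 and Ercc1 held 1 GC box each, and that of Mill2 held none of these motifs. Among the 32851 promoters of the table, 32.7% held a GC box, 33.8% a CCAAT box, 12.4% a TATA box and 6.02% an E box. The median promoter held 6 CpG sites, against 10 for Ccdc61, 8 for Ercc1, 3 for Pglyrp1 and 2 for Mill2. The RefSeq starts of Pglyrp1, Ccdc61 and Ercc1 lie inside the genes as GENCODE draws them. Promoters were found for 8 of the 10 members, and a match describes these letters only.

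The libraries held 79177051 to 128323908 UMIs, and filters kept 184956 nuclei. Gating by marker genes gave 36682 excitatory neurons, 48387 inhibitory neurons, 18792 astrocytes, 28446 oligodendrocytes, 4714 OPCs and 1934 microglia. The UMIs of a class were summed in each library, and levels are CPM, which scale the UMIs of a gene to the total of that class and library. The counts of mouse App and Mapt overlapped between the genotypes. The same 12 libraries stand behind every class, and free RNA reaches all droplets of a library, so the classes are not independent samples. The 4 neuronal markers summed to 5070 to 6356 CPM in excitatory neurons, 541 to 1114 in astrocytes, 341 to 1000 in oligodendrocytes, 632 to 1692 in OPCs and 373 to 2386 in microglia, and their part in the glial values was not tested. The 4 ependymal markers summed to less in 3xTg-AD than in WT without overlap in 5 of 6 classes at each age, as at 57.4 to 61.1 against 119 to 123 CPM in inhibitory neurons at 6 months and 49.6 to 63.5 against 136 to 152 at 12 months. The marker Cfap54 carried most of this gap, at 38.36 to 41.02 against 102.2 to 109.5 CPM in inhibitory neurons at 6 months. Without Cfap54 the sum of the other 3 overlapped between the genotypes in all 6 classes at 6 months and in all but inhibitory neurons at 12 months, where it stood at 7.71 to 17.7 against 19.6 to 34.7 CPM. The part of these markers in the members' values was not tested. Any pair of libraries shared at most 0.648% of the barcodes of the smaller one. Each library is taken as a separate mouse after the study's methods, and all were sequenced in a single batch. In summed nuclei, fewer expressing cells and less RNA per cell cannot be told apart.

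In excitatory neurons, the class that chose the genes, 6 members were lower in 3xTg-AD at 6 months and 4 were higher. Ccdc61 averaged 2.23 ± 0.22 CPM (SD, n = 6) over the 3xTg-AD libraries of both ages, 10.8 in 6-month WT and 6.19 in 12-month WT. Pglyrp1 averaged 0.715 ± 0.19 CPM in 3xTg-AD, 3.86 in 6-month WT and 1.94 in 12-month WT. Ercc1 averaged 4.38 ± 0.66 CPM in 3xTg-AD, 9.82 in 6-month WT and 6.92 in 12-month WT. Gipr, Nanos2 and Gm19345 were lower in 3xTg-AD as well. In the other direction, Mill2 averaged 3.85 ± 0.58 CPM in 3xTg-AD, 0.806 in 6-month WT and 2.34 in 12-month WT. Gm16251 averaged 9.27 ± 0.8 CPM in 3xTg-AD, 3.02 in 6-month WT and 6.38 in 12-month WT. Ppm1n and Ceacam20, with 403 and 110 UMIs in all, were also higher. The mean of 12-month WT stood between 3xTg-AD and 6-month WT for all 10 members, a description for which no share of all genes was taken. Of all 18192 genes tested at 6 months, 1.12% were called, and 6 of 10 members were, a count that the choice of members used. At 12 months 0.937% of 18357 genes were called, and of the members Ccdc61 alone, which again is a description, and its call was lost under 2 of 12 alternatives.

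In inhibitory neurons, Ercc1, Ccdc61 and Pglyrp1 fell in 3xTg-AD at both ages and Gm16251 rose. Genes were called where the adjusted p was below 0.05 and the log2 fold change lay more than 0.2 from 0. At 6 months 9 members passed the filter on low counts and 5 of them were called, where 0.931% of all 18592 genes were. The genotypes did not overlap for any of the 9, nor for 15.6% of all genes tested. Ccdc61 stood at 1.8, 2.44 and 3.29 CPM in 3xTg-AD and 8.88, 9.67 and 10.5 in WT at 6 months, and at 3.2, 2.72 and 2.73 against 6.7, 8.05 and 7.28 at 12 months. Every 3xTg-AD library was below every WT library, and 12-month WT was below 6-month WT without overlap. The WT ages did not overlap for 19.8% of all 18401 genes tested between them in this class. Ccdc61 fell, with a log2 fold change of -1.90 ± 0.21 (SE) at 6 months (edgeR adjusted p = 0.00632) and -1.23 ± 0.18 at 12 months (edgeR adjusted p = 0.0135).

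Ercc1 was read at 3.83, 3.74 and 4.69 CPM in 3xTg-AD inhibitory neurons and 9.74, 10.1 and 13.6 in WT at 6 months, and at 4.39, 4.0 and 4.25 against 6.09, 7.48 and 8.61 at 12 months. The genotypes did not overlap at either age, and the 12-month WT libraries were all below those of 6 months. Ercc1 fell, with a log2 fold change of -1.42 ± 0.18 at 6 months (edgeR adjusted p = 0.00968) and -0.69 ± 0.16 at 12 months (edgeR adjusted p = 0.0458). Pglyrp1 was at 0.691, 1.15 and 0.956 CPM in 3xTg-AD and 5.2, 4.53 and 2.86 in WT at 6 months, and at 0.665, 0.863 and 0.951 against 2.87, 3.21 and 2.5 at 12 months. Its genotypes stood apart at both ages, while the WT ages overlapped. Pglyrp1 fell, with log2 fold changes of -2.12 ± 0.29 at 6 months and -1.68 ± 0.24 at 12 months (edgeR adjusted p = 0.0145 and 0.0135).

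Among the members higher in 3xTg-AD, Gm16251 stood at 9.15, 8.56 and 10.4 CPM in 3xTg-AD inhibitory neurons and 3.28, 2.97 and 2.49 in WT at 6 months, and at 8.06, 9.88 and 9.95 against 5.65, 6.51 and 7.03 at 12 months. Both 3xTg-AD groups were on top, 12-month WT in the middle and 6-month WT at the bottom, without overlap between these levels. Gm16251 rose by 1.71 ± 0.15 on the log2 scale at 6 months (edgeR adjusted p = 0.00197) and by 0.65 ± 0.14 at 12 months (edgeR adjusted p = 0.0368). Mill2 was at 2.45, 3.02 and 3.33 CPM in 3xTg-AD and 1.12, 1.04 and 0.805 in WT at 6 months, and at 2.86, 3.84 and 3.36 against 2.74, 1.89 and 2.95 at 12 months. Its genotypes stood apart at 6 months and overlapped at 12. Mill2 rose by 1.60 ± 0.22 on the log2 scale at 6 months (edgeR adjusted p = 0.0147), and its 12-month value of 0.52 ± 0.24 was not called (edgeR adjusted p = 0.22).

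Nanos2 was sparse, with 239 UMIs in all inhibitory neurons. It stood at 0.552, 0.431 and 0.149 CPM in 3xTg-AD and 1.18, 0.808 and 0.831 in WT at 6 months, and at 0.32, 0.235 and 0.356 against 0.87, 1.06 and 0.956 at 12 months. The genotypes did not overlap at either age. Nanos2 fell, with a log2 fold change of -1.54 ± 0.29 at 12 months (edgeR adjusted p = 0.0256) and was not called at 6 months, at -1.36 ± 0.43 (edgeR adjusted p = 0.346). At 12 months Nanos2 reached the count minimum of the filter in 3 WT libraries and 1 of 3xTg-AD, so it passed through the genotype in which it was higher. Gipr, Ppm1n and Gm19345 were not called at either age. Gipr had means of 0.904 CPM in 3xTg-AD and 2.05 in WT at 6 months, and its groups overlapped at 12 months. Ppm1n had means of 0.935 and 0.346 CPM at 6 months and 0.753 and 1.14 at 12 months. Ceacam20 did not pass the filter, with 79 UMIs.

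**Figure D1:**
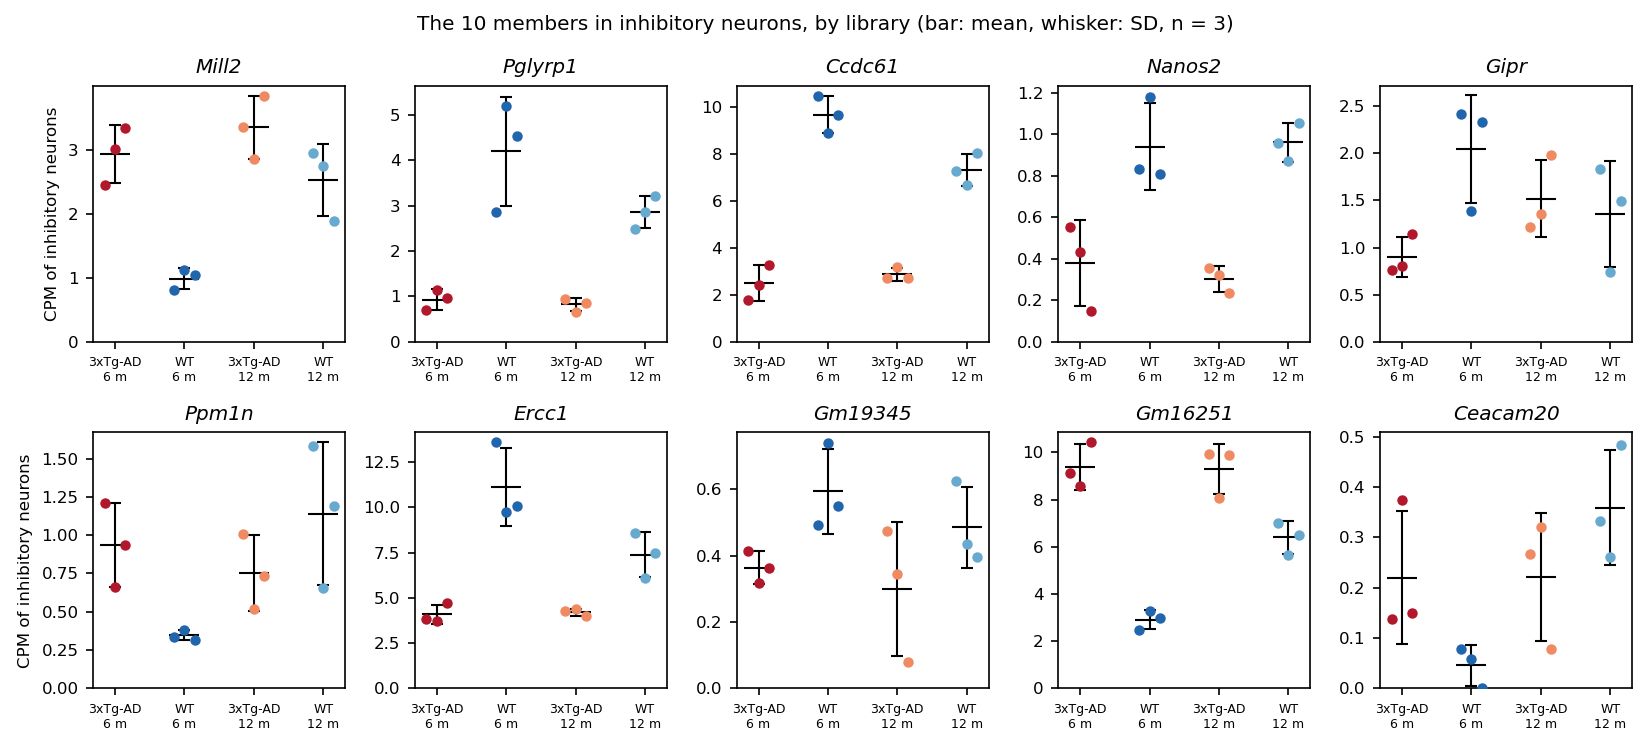
CPM of each of the 10 members in inhibitory neurons (vertical axes, linear from 0) by group, in chromosome order, with 1 point per library, the mean as a bar and the SD as whiskers (n = 3). 6-month WT lies apart from both 3xTg-AD groups for every member but Gipr, and 12-month WT of Ccdc61, Ercc1 and Gm16251 lies between them.

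At 12 months, 5 of 9 members were called in inhibitory neurons, where 5.52% of all 18293 genes were, the largest share of any class. The genotypes did not overlap for 5 members and for 26.9% of all genes. The share of inhibitory nuclei with UMIs of at least 2 striatal markers was 39.9 to 60.7% in 12-month 3xTg-AD and 29.0 to 35.7% in 12-month WT, while the shares at 6 months were 38.7 to 51.3% and 45.4 to 63.6%. At 12 months the 4 neuronal markers of this class summed to 5109 to 5769 CPM in 3xTg-AD and 4489 to 4996 in WT, and their part in the members' values was not tested. Without those nuclei, the 12-month values of Ercc1, Nanos2 and Gm16251 were -0.74, -1.64 and 0.53 on the log2 scale, and none of the 3 was called.

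In astrocytes, 4 members passed the filter and 2 were called at 6 months, where 0.732% of all 13797 genes were. All 4 stood apart between the genotypes at that age, as did 14.2% of all genes, and 2 did at 12 months, as did 12.3%. Ccdc61 stood at 8.78, 11 and 9.94 CPM in 3xTg-AD and 19.9, 28 and 25.1 in WT at 6 months, and at 9.1, 10.7 and 8.4 against 12.6, 17.8 and 16.3 at 12 months. Its groups were ordered as in neurons, at a higher level in each group. Ccdc61 fell, with a log2 fold change of -1.28 ± 0.18 at 6 months (edgeR adjusted p = 0.00448), and its 12-month value of -0.72 ± 0.20 was not called (edgeR adjusted p = 0.28). In 6-month astrocytes the pericyte markers summed to 58.8 to 66.9 CPM in 3xTg-AD and 70.2 to 86.1 in WT. The fibroblast markers summed to 80.2 to 99.6 and 105 to 130 CPM. Both stood apart, and their part in the members' values was not tested.

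Gm16251 had 21, 20 and 49 UMIs in 3xTg-AD astrocytes and 1, 4 and 2 in WT at 6 months, or 5.12, 4.66 and 8.12 against 0.182, 0.948 and 0.398 CPM. At 12 months it stood at 4.82, 5.34 and 5.13 CPM in 3xTg-AD and 4.8, 4.94 and 3.82 in WT, so that the genotypes overlapped. Gm16251 rose by 3.61 ± 0.49 on the log2 scale at 6 months (edgeR adjusted p = 0.00304), and its 12-month value was 0.18 ± 0.28. At 6 months it reached the count minimum of the filter in 3 libraries of 3xTg-AD and 0 of WT, so it was tested through the genotype in which it was higher. Ercc1 averaged 3.62 and 9.83 CPM at 6 months and 2.44 and 6.53 at 12 months in 3xTg-AD and WT, without overlap at either age. The log2 fold changes of Ercc1 were -1.40 ± 0.30 and -1.34 ± 0.37 and were not called (edgeR adjusted p = 0.0674 and 0.256). At 6 months Ercc1 was called by DESeq2 (adjusted p = 0.0443), and by edgeR with no filter on low counts (adjusted p = 6.99e-05) and without WT replicate 3 (adjusted p = 0.0428), while the other 9 alternatives did not call it. At 12 months edgeR called 0.371% of all 13487 genes and 0 of 4 members in astrocytes, 2 members had an unadjusted p under 0.05, and DESeq2 called 0.

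In oligodendrocytes, Ccdc61 was close to absent in 3xTg-AD. Its UMIs numbered 2, 5 and 6 in 3xTg-AD and 98, 84 and 84 in WT at 6 months, and 4, 0 and 7 against 81, 61 and 52 at 12 months. These are 0.474, 0.961 and 1.1 against 17.2, 19.4 and 21.6 CPM at 6 months, and 0.99, 0 and 0.642 against 9.51, 10.9 and 11 at 12 months. The 12-month WT libraries lay between the other WT group and 3xTg-AD and overlapped neither. The WT ages did not overlap for 12.1% of all 13219 genes tested between them in this class. Ccdc61 fell, with a log2 fold change of -4.42 ± 0.28 at 6 months (edgeR adjusted p = 3.28e-05) and -4.28 ± 0.47 at 12 months (edgeR adjusted p = 0.00451). At both ages Ccdc61 passed the filter only through WT, with 0 libraries of 3xTg-AD at the count minimum, so that being tested was tied to the difference. Outside the neuron classes, no other pair of a member and a class was called at both ages.

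Gm16251 stood at 6.4, 4.42 and 5.14 CPM in 3xTg-AD oligodendrocytes and 0.701, 0.461 and 0.514 in WT at 6 months, and at 3.96, 8.04 and 5.14 against 4.34, 3.59 and 3.8 at 12 months. The 6-month WT libraries were far below all others, on 4, 2 and 2 UMIs, and the 12-month groups overlapped, as in astrocytes. Gm16251 rose by 3.15 ± 0.38 on the log2 scale at 6 months (edgeR adjusted p = 0.00294), and its 12-month value of 0.51 ± 0.33 was not called (edgeR adjusted p = 0.81). At 6 months it passed the filter only through 3xTg-AD. Gipr ranged from 4.77 to 17.9 CPM per oligodendrocyte library, where the neuron classes ranged from 0.402 to 2.42. Its means were 7.95 and 13 CPM at 6 months and 6.87 and 11.8 at 12 months in 3xTg-AD and WT, without overlap at either age, and Gipr was not called (-0.72 ± 0.24 and -0.81 ± 0.28 on the log2 scale). With no filter on low counts edgeR called Gipr and Ercc1 in oligodendrocytes at 6 months (adjusted p = 0.0489 and 0.0114). Of all oligodendrocyte genes, 0.784% of 13011 were called at 6 months and 0.656% of 13413 at 12 months, against 2 and 1 of 4 members. The called members are those that passed through a single genotype, so these counts are no support. The genotypes did not overlap for 5 of the 10 members at each age, and for 15.3% and 12.6% of all genes tested. Only 4 members passed the filter at each age, so the 5 include sparse members that did not. The shares cover only genes that passed it, so count and share are not like for like. The sparsest member with any UMI in this class, Gm19345, had 5 UMIs over the 12 libraries.

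In OPCs, 2 members passed the filter at 6 months, each only through the genotype in which it was higher. Both were called, where 0.372% of 11032 genes were, and since passing was tied to the difference their number is no support. Ccdc61 had 3, 2 and 5 UMIs in 3xTg-AD and 20, 21 and 31 in WT at 6 months, and fell, with a log2 fold change of -3.02 ± 0.42 (edgeR adjusted p = 0.00184). The astrocyte markers in 6-month OPCs summed to 3492 to 3790 CPM in 3xTg-AD and 3923 to 4342 in WT, without overlap. Their part in the members' values was not tested. Mill2 had 23, 21 and 26 UMIs in 3xTg-AD and 5, 1 and 5 in WT at 6 months, and 21, 29 and 42 against 23, 3 and 19 at 12 months. In CPM these are 15, 12.5 and 13.1 against 3.15, 0.702 and 3.57 at 6 months, without overlap, and 12.7, 17.4 and 17.2 against 13.3, 2.7 and 12.6 at 12 months, with WT replicate 8 alone at the level of 6-month WT. Mill2 rose by 2.43 ± 0.42 on the log2 scale at 6 months (edgeR adjusted p = 0.0144), and its 12-month value of 0.65 ± 0.38 was not called. The 6-month call of Mill2 was lost with DESeq2 (adjusted p = 0.0604) and in edgeR without 3xTg-AD replicate 5, 3xTg-AD replicate 9 or WT replicate 7 (edgeR adjusted p = 0.0956, 0.0741 and 0.0876), at 2.02 to 2.48 on the log2 scale. At 12 months edgeR called 0.392% of 11221 genes and 0 of 2 members, with 0 at an unadjusted p under 0.05 and 0 by DESeq2. Gm19345 had no UMI in any OPC library, where 3 UMIs would be 1.23 to 2.70 CPM.

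No member passed the filter in microglia, where 3 UMIs correspond to 4.11 to 16 CPM. Ccdc61 had 3, 2 and 1 UMIs in 3xTg-AD microglia and 9, 5 and 4 in WT at 6 months, and 5, 7 and 12 against 11, 5 and 5 at 12 months. In CPM these are 15, 6.81 and 3.51 against 34.7, 23.2 and 18.0 at 6 months, and 15.15, 15.91 and 16.45 against 23.29, 16.85 and 26.65 at 12 months. Ccdc61 and Mill2, both higher in WT, did not overlap between the genotypes at either age, nor did 21.5% of all 4958 genes tested in microglia at 6 months and 12.3% of 6821 at 12 months. At 12 months the astrocyte markers in microglia summed to 557 to 615 CPM in 3xTg-AD and 1641 to 4073 in WT, and the fibroblast markers to 84.1 to 93.9 and 155 to 250 CPM, both without overlap, and their part in these values was not tested. Mill2 rested on 0 UMIs in 3xTg-AD and 5 in WT at 6 months and on 5 and 9 at 12 months. No member could be tested at this depth, while 1.84% of the genes tested were called at 6 months.

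Among the minor classes, which were described and not tested, Mill2 averaged 283 CPM over the 12 libraries in endothelial cells, 216 in pericytes and 132 in fibroblasts. The genotypes overlapped in endothelial cells at both ages and in pericytes at 6 months, while in pericytes at 12 months WT was higher without overlap. In the 2264 fibroblasts the order of the genotypes was the opposite of that in neurons. Mill2 stood at 79.3, 66.8 and 75 CPM in 3xTg-AD fibroblasts and 174, 152 and 218 in WT at 6 months, and at 110, 132 and 94.7 against 170, 143 and 166 at 12 months. Every WT library was above every 3xTg-AD library. The levels are coarse, since libraries held 50 to 309 fibroblasts and the smallest count of Mill2 was 13 UMIs. Ccdc61, with 94 UMIs in fibroblasts, kept the direction of the other classes at 6 months, with 8.93, 12.4 and 8.15 CPM in 3xTg-AD and 19.5, 30.9 and 28.8 in WT.

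**Figure D2:**
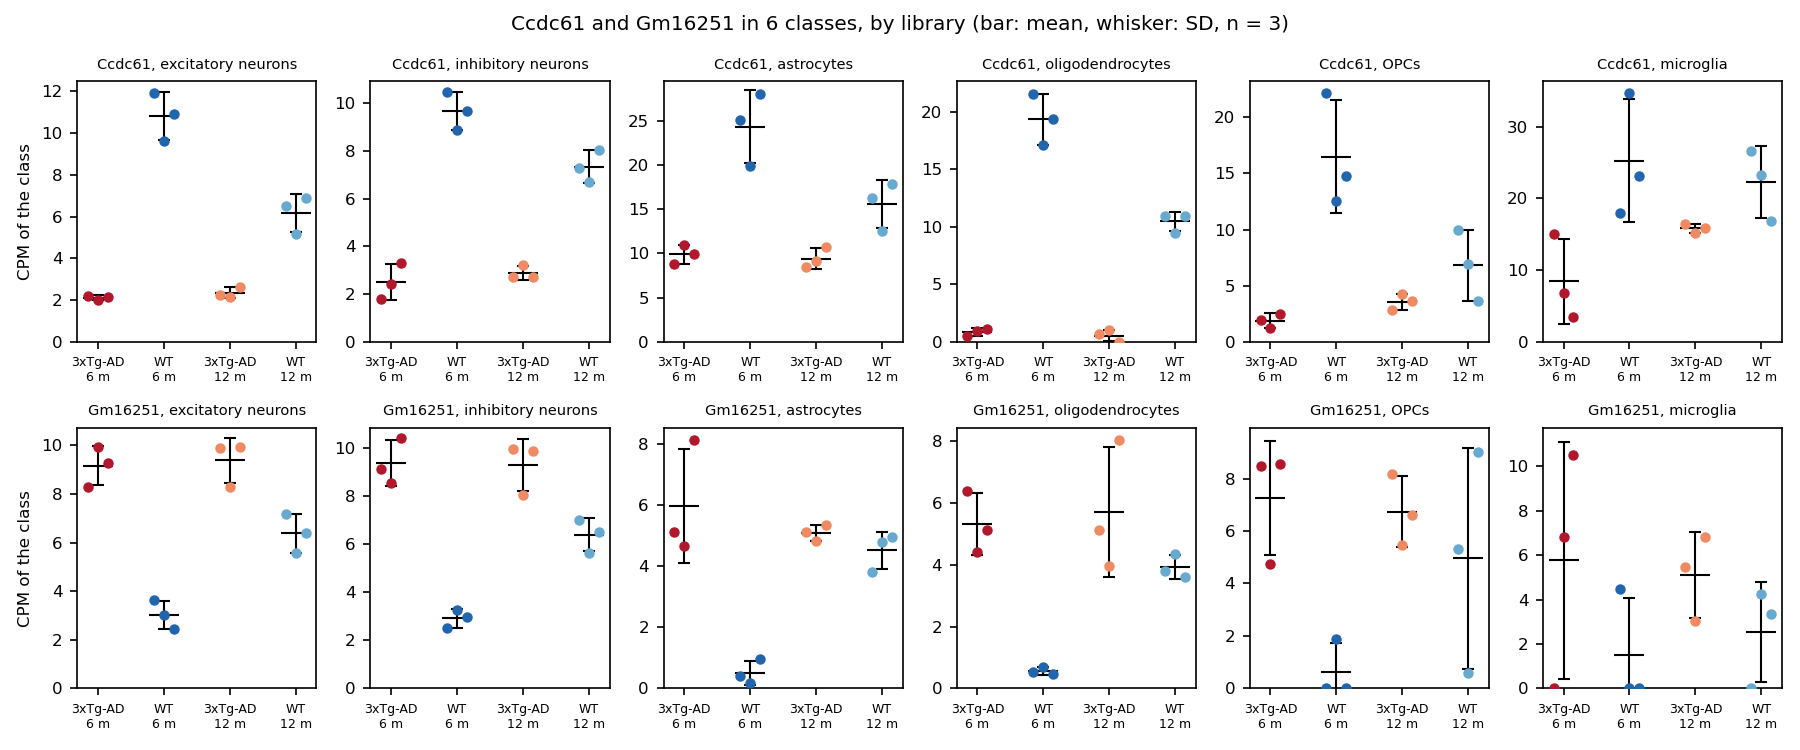
CPM of Ccdc61 (top) and Gm16251 (bottom) by group in 6 classes, with 1 point per library, the mean as a bar and the SD as whiskers (n = 3); vertical axes are linear, start at 0 and differ between panels. Ccdc61 is lowest in 3xTg-AD oligodendrocytes at 0 to 1.10 CPM. The mean of Gm16251 in 6-month WT is 0.509 CPM in astrocytes, 0.559 in oligodendrocytes and 0.629 in OPCs.

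Over the 5 classes other than excitatory neurons, 11 of 19 tested pairs of a member and a class were called at 6 months (57.9%) and 6 of 19 at 12 months (31.6%). Among all pairs of a gene and a class, 508 of 61390 (0.827%) and 1212 of 63235 (1.92%) were called. At each age 13 of the 19 member pairs reached the count minimum of the filter in every library of both genotypes, and 6 of these 13 were called at 6 months and 4 at 12 months. The other 6 fell short in at least 1 library, so their passing can depend on the difference, and 5 and 2 of them were called. All 19 member pairs had an unadjusted p under 0.05 at 6 months and 10 did at 12 months, as did 5905 of all 61390 pairs and 7910 of 63235. Among the member pairs that reached the count minimum in both genotypes at 6 months, Ccdc61 fell in inhibitory neurons and astrocytes, Ercc1 and Pglyrp1 fell in inhibitory neurons, and Gm16251 and Mill2 rose there. Mill2 and Pglyrp1, neighbours on the same strand, differed in opposite directions in inhibitory neurons.

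These counts depend on single libraries. At 6 months, 6 pairs were called without 3xTg-AD replicate 5 and 7 without 3xTg-AD replicate 9. At 12 months, 1 pair was called without 3xTg-AD replicate 2 or without 3xTg-AD replicate 6, 2 without WT replicate 4, and 3 without WT replicate 8 or without WT replicate 12. Ccdc61 in oligodendrocytes was called under all 12 alternatives at both ages, with log2 fold changes of -4.63 to -4.17 at 6 months and -4.64 to -3.82 at 12 months. Gm16251 at 6 months was called under all 12 alternatives in astrocytes (3.19 to 4.69) and oligodendrocytes (2.94 to 3.38) and under all 13 in inhibitory neurons (1.63 to 1.80). Ccdc61 at 6 months was called under all 12 alternatives in astrocytes (-1.41 to -1.17) and all 11 in OPCs (-3.29 to -2.76). Of these pairs, Gm16251 in inhibitory neurons and Ccdc61 in astrocytes passed the filter in both genotypes. The other glial pairs passed through the genotype in which they were higher. The 6-month calls of Ccdc61, Ercc1, Mill2 and Pglyrp1 in inhibitory neurons were lost under 1, 3, 3 and 4 of 13 alternatives. The 12-month calls of Ercc1, Nanos2 and Gm16251 in inhibitory neurons were lost under 8, 7 and 7 of 13 alternatives, while their values ranged from -0.76 to -0.61, -1.67 to -1.30 and 0.53 to 0.72.

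**Figure D3:**
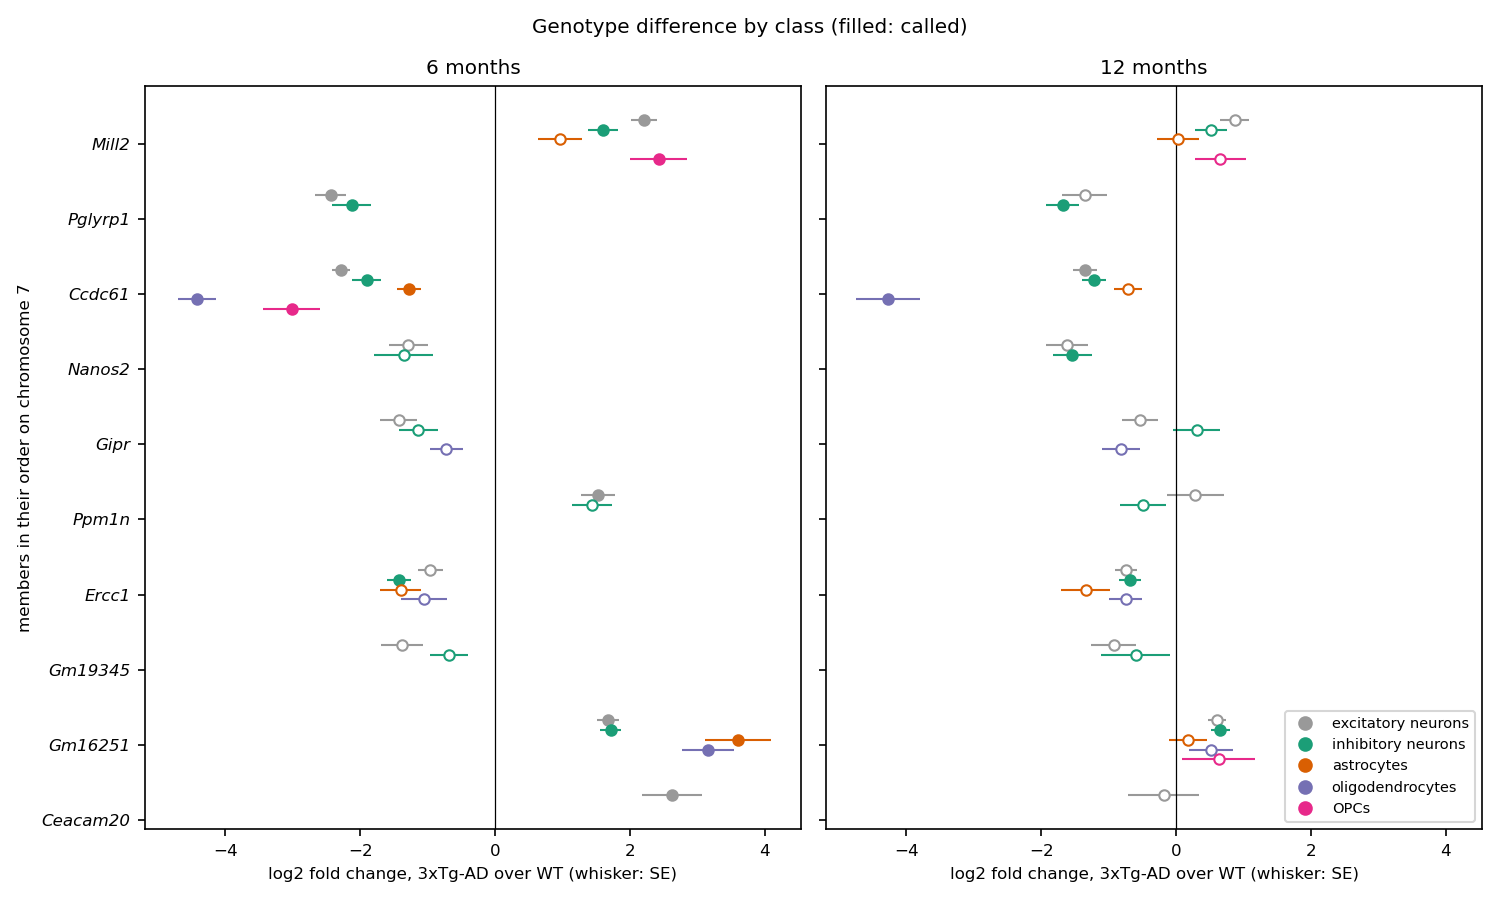
Log2 fold change of 3xTg-AD over WT (horizontal axis) for each member that passed the filter, in chromosome order, at 6 months (left) and 12 months (right). Colours are classes, whiskers are the SE derived from the edgeR F statistic, and filled points were called. At 6 months all points of a member lie on 1 side of 0, with Ccdc61 in oligodendrocytes at -4.42, and at 12 months many lie nearer to 0. The points include those of excitatory neurons, the class that chose the members and the only class shown for Ceacam20. Those points are a description without a test. Microglia, where no member was tested, and the minor classes are not shown.

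In inhibitory neurons, the mean of 12-month WT lay between 3xTg-AD and 6-month WT for 6 of the 9 members whose 6 3xTg-AD libraries did not overlap 6-month WT. No share of all genes was taken for these counts. The members were chosen by a genotype difference in the same libraries, so the counts are descriptions. With the 3xTg-AD mean as 0% and the 6-month WT mean as 100%, 12-month WT stood at 46.3% for Ercc1, 66.6% for Ccdc61, 59.7% for Pglyrp1 and 45.8% for Gm16251. For Nanos2 it stood at 104%, the level of 6-month WT, and for Ppm1n and Ceacam20 at -59.5% and -78.8%, beyond 3xTg-AD, with Ceacam20 on 79 UMIs in all. In oligodendrocytes Ccdc61 stood at 52.4% and Gm16251 at 32.3%, and in astrocytes they stood at 40.4% and 20.2%.

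Between the ages of WT, 0 of 19 pairs were called with edgeR. Of the 19, 12 had an unadjusted p under 0.05 and DESeq2 called 6. The shares of all genes at that unadjusted threshold or by DESeq2 are not given here, so the latter counts are descriptions. Of all genes, edgeR called 0.147% in inhibitory neurons, 0.0293% in astrocytes, 0.0378% in oligodendrocytes and 0.0366% in OPCs. Gm16251 differed by 1.07 ± 0.18 on the log2 scale in inhibitory neurons, 3.15 ± 0.50 in astrocytes and 2.77 ± 0.40 in oligodendrocytes (edgeR adjusted p = 0.0611, 0.0784 and 0.0607), with 12-month WT above 6-month WT without overlap. The WT ages did not overlap for 19.8%, 11.1% and 12.1% of all genes tested in the same classes. In inhibitory neurons Ppm1n (1.63 ± 0.35) and Mill2 (1.29 ± 0.27) had larger values than Gm16251. With all 12 libraries in 1 fit, Gm16251 in these 3 classes and Mill2 in inhibitory neurons were called, and without 6-month WT replicate 3 edgeR called 1 pair.

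Between the ages of 3xTg-AD, 0 of 18 pairs were called with edgeR, 1 had an unadjusted p under 0.05 and DESeq2 called 0. The shares of all genes were 0.0215% in inhibitory neurons, 0.0074% in astrocytes, 0% in oligodendrocytes and 0.0179% in OPCs. The interaction of genotype and age was called by edgeR for 0 of 22 pairs, where 0.0984%, 0%, 0% and 0.0254% of all genes were called in the same classes. Of the 22 pairs, 12 had an unadjusted p under 0.05 and DESeq2 called 4. The matching shares of all genes are not given here, so these counts are descriptions. The largest interaction value was that of Gm16251 in astrocytes, -3.42 ± 0.56 (edgeR adjusted p = 0.0647). Without 12-month 3xTg-AD replicate 10, 3 pairs had a called interaction, and 1 had without 6-month WT replicate 3 or without 12-month WT replicate 12. In all nuclei together, which include the excitatory neurons that chose the genes, 0.0704% of all genes had a called interaction, Gm16251 among them.

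In the window that reaches 1 Mb beyond the outermost members, 109 other genes were counted, and none in the outer 1 Mb passed the filter in any of the 6 classes. Over the 5 classes, 4 of 124 window pairs were called at 6 months (3.23%) and 1 of 132 at 12 months (0.758%), where 0.827% and 1.92% of all pairs of a gene and a class were. Leaving out 6-month 3xTg-AD replicate 5 or 9 or WT replicate 7 gave 1, 2 and 2 window pairs, and at 12 months leaving out 3xTg-AD replicate 10 gave 4 and leaving out any other library gave 0. In inhibitory neurons at 6 months, 1 of 41 tested genes between the outermost members was called (2.44%), with a median absolute log2 fold change of 0.173. From 1 to 3 Mb beyond the outermost members, 5 of 38 were called (13.2%), with a median of 0.321, and on other chromosomes 0.703% were, with a median of 0.123. At 12 months 1 of 40 and 4 of 37 were called in the same stretches (2.5% and 10.8%), beside 5.49% on other chromosomes. No gene of the window was called in 3 or more combinations of class and age. Those called at all, named after their values were seen, were Pvr, Apoe, Qpctl and Dmpk.

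Pvr, the gene on the other strand of Gm16251, encodes a surface receptor of the nectin family and was called in 6-month astrocytes and oligodendrocytes. It averaged 9.09 ± 2.33 CPM in 3xTg-AD astrocytes and 0.916 ± 0.444 in WT at 6 months (SD, n = 3), a log2 fold change of 3.35 ± 0.37 beside the 3.61 of Gm16251. At 12 months Pvr averaged 11.3 ± 1.8 CPM in 3xTg-AD astrocytes and 4.68 ± 1.05 in WT. In inhibitory neurons Pvr had the other direction at 6 months, with 4.45 ± 0.64 CPM in 3xTg-AD and 7.05 ± 0.20 in WT, while Gm16251 was higher in 3xTg-AD. Apoe, the lipid carrier made by astrocytes, averaged 2552 ± 129 CPM in 3xTg-AD astrocytes and 1757 ± 36 in WT at 6 months, a log2 fold change of 0.55 ± 0.10 (edgeR adjusted p = 0.0186).

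Other genes of chromosome 7 differed too. With the members left out, 3.27% of 1344 tested genes on chromosome 7 were called in 6-month inhibitory neurons and 0.703% of 17219 on other chromosomes. The shares were 2.17% and 0.595% in astrocytes, 1.35% and 0.715% in oligodendrocytes, 0.638% and 0.322% in OPCs, and 1.47% and 1.84% in microglia. At 12 months they were 5.37% and 5.49% in inhibitory neurons, 0.302% and 0.377% in astrocytes, 0.101% and 0.693% in oligodendrocytes and 0.124% and 0.413% in OPCs. Among single chromosomes at 6 months, chromosome 7 with the members left out had the largest share in inhibitory neurons (3.27%) and astrocytes (2.17%). Chromosomes 4 and 17 followed in inhibitory neurons at 2.02% and 1.88%. In oligodendrocytes chromosomes 17 (1.58%) and 1 (1.53%) were above chromosome 7 without the members (1.35%). In OPCs chromosomes 17, 18 and 6 (0.962%, 0.912% and 0.907%) were above chromosome 7 without the members (0.638%). In bins of 10 Mb along chromosome 7 in 6-month inhibitory neurons, again with the members left out, 7 of 109 genes were called from 10 to 20 Mb, where the members lie (6.42%), 7 of 91 in the bin before it (7.69%), 6 of 150 in the bin after it (4%) and 10 of 145 from 40 to 50 Mb (6.9%). From 50 to 60 Mb 2 of 27 were called (7.41%), and each bin from 70 Mb onward held 0 to 2 called genes. At 12 months the largest shares in this class lay from 130 to 140 Mb (7 of 67, 10.4%) and 110 to 120 Mb (7 of 69, 10.1%). The bin of the members then held 6 of 106 (5.66%). These shares are descriptions. The alleles that each mouse carries along chromosome 7 were not analysed here, so an inherited strain segment was not tested.

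**Figure D4:**
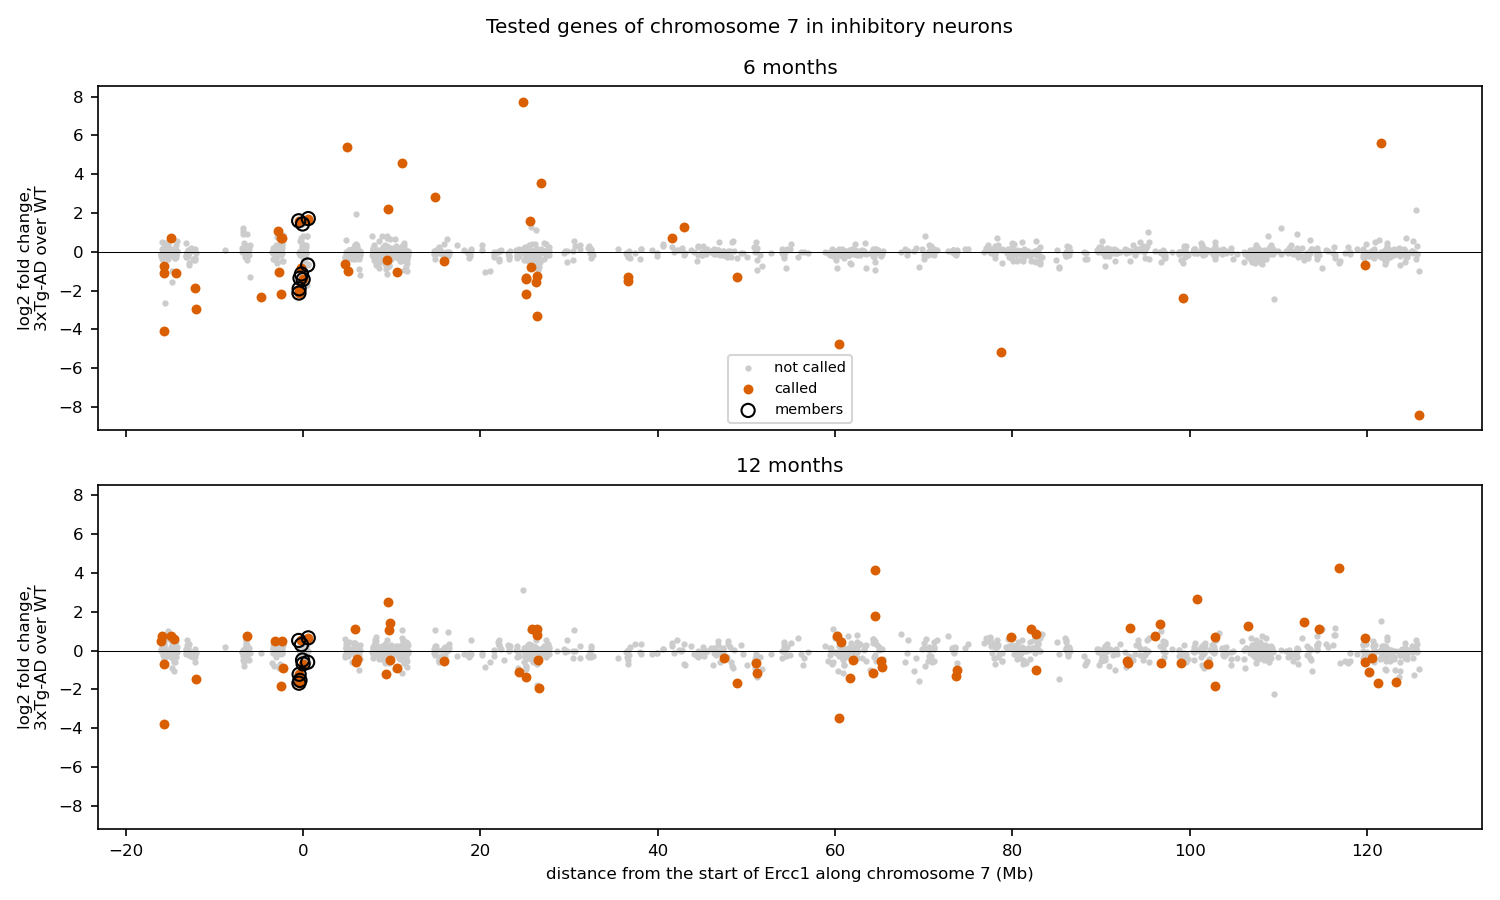
Log2 fold change of 3xTg-AD over WT in inhibitory neurons (vertical axes) for every tested gene of chromosome 7 by its distance from the start of Ercc1 (horizontal axis, Mb), at 6 months (top) and 12 months (bottom), with called genes and members marked in the legend. At 6 months, with the members left out, 7 of 109 genes were called from 10 to 20 Mb of the chromosome, 7 of 91 from 0 to 10 Mb and 2 of 84 from 140 to 150 Mb. At 12 months 6 of 106 were called from 10 to 20 Mb and 7 of 67 from 130 to 140 Mb.

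Of the 36 nucleotide excision repair genes, 35 besides Ercc1 were tested in inhibitory neurons. At 6 months edgeR called 0 of them, with 3 at an unadjusted p under 0.05 and 1 called by DESeq2, and their median log2 fold change was -0.02 against -0.01 for all genes. At 12 months edgeR called 1 of the 35, Ccnh, the cyclin partner of Cdk7, where 5.52% of all 18293 genes were called. Ccnh stood at 75.7 ± 0.9 CPM in 3xTg-AD and 64.9 ± 3.0 in WT (log2 fold change 0.34 ± 0.08). Of the 35, 7 had an unadjusted p under 0.05 and DESeq2 called 2. In astrocytes, oligodendrocytes, OPCs and microglia, edgeR called 0 of the 11 to 35 repair genes tested at either age, with 1 to 3 at an unadjusted p under 0.05 and 0 called by DESeq2. Of the relatives of the other members, edgeR called 1 in the 5 classes: Ppm1e, a phosphatase of the family of Ppm1n, in 6-month microglia, with 275 ± 17 CPM in 3xTg-AD and 148 ± 19 in WT. In the same microglia the 4 neuronal markers summed to 1141 to 2386 CPM in 3xTg-AD and 468 to 966 in WT, without overlap, and their part in the Ppm1e value was not tested. DESeq2 did not call Ppm1e, and it called 3 relatives in 12-month inhibitory neurons and 1 in 6-month oligodendrocytes. In inhibitory neurons 1 of 17 relatives had an unadjusted p under 0.05 at 6 months and 6 did at 12 months. The share of all genes at that threshold was not taken for this class. At 12 months 5.52% of all its genes were called and 26.9% did not overlap between the genotypes. The counts of relatives and of repair genes at that threshold are therefore descriptions, and no shift of a family was tested. Those 6 include all 3 tested genes of the incretin list other than Gipr. The median log2 fold change of these 3 was -0.71 against -0.00233 for all genes, and it was 0.0888 at 6 months. At 12 months edgeR called 0 of the 3 and DESeq2 called 2.

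The genes outside the window whose levels followed Ercc1 most closely over the 12 libraries of inhibitory neurons were Smg9, Gm8797, Nfs1, AC159140.1 and Gm37229, with Pearson r of log2 CPM from 0.951 to 0.972. Smg9 (chr7:24399619-24422778), a factor of nonsense-mediated RNA decay, averaged 14.2 and 29.0 CPM at 6 months in 3xTg-AD and WT. Nfs1 (chr2:156123639-156144186), the cysteine desulfurase of iron-sulfur cluster assembly, averaged 29.6 and 46.4 CPM in the same groups. Among the members, Ccdc61 had r = 0.954 and Pglyrp1 0.873, and Gm16251 and Mill2 had -0.908 and -0.856. The libraries share their 4 groups, so these values describe the common group pattern.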

How the data were processed

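The authors sequenced 12 libraries of sorted hippocampal nuclei and deposited UMI counts per gene and barcode, the filtered matrices of Cell Ranger 6.1.1 on mm10, with free RNA not removed. The unit used here is these raw counts as deposited. Nuclei with 500 to 10000 genes, at most 5% mitochondrial UMIs and a log10 genes to log10 UMIs ratio above 0.8 were kept. Classes were gated by the number of marker genes detected, nuclei that met several gates or none were left out, and no doublet caller was run. For each class the counts of a library were added up, and edgeR 4.0.16 in R 4.3.3 gave quasi-likelihood tests, with TMM factors, filterByExpr and Benjamini-Hochberg adjustment over all genes tested in a class. The SE of a log2 fold change was derived from the test, as its absolute value over the square root of the quasi-likelihood F statistic. Each age was fitted on its 6 libraries, and the interaction on all 12, with no fold threshold. DESeq2 1.42.0, other size factors, no filter, 1 fit of all libraries, a stricter gate, inhibitory nuclei without striatal markers, thinned counts, a 3 Mb window and each library left out were the alternatives. The comparisons of ages within a genotype, with their alternatives, were added after seeing the data. On simulated counts with 100 genes changed 4-fold in inhibitory neurons, the test called 99 at 6 months and 100 at 12 months, and of 100 genes changed 2-fold 81 and 77. The changed genes were drawn only from genes above a minimum mean count, and each gene had the variation usual at its level. These rates therefore do not cover sparse members such as Ceacam20 and Gm19345. Positions come from GENCODE on GRCm38 and promoters from RefSeq on GRCm38.p6.

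Named were all 10 members, neighbours called in at least 3 combinations of class and age, called genes of the repair and family lists, and the 5 genes most correlated with Ercc1 (pseudocount 0.1 CPM). No neighbour met that rule, and the neighbours named were chosen after their values were seen. Members and lists were chosen with earlier results of these data known. Floors of 3 counts cover counting error only, while the SD and SE given also hold variation between libraries. A part of the 3xTg-AD genotype and its expression check are not reported here.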

Additional observations from a re-analysis of the deposited data

Results flagged for a closer look

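The difference between the 12-month and the 6-month log2 fold change of Gm16251 in all nuclei was -1.25 ± 0.15 (SE), and it stands here because the effects at the 2 ages differ. All nuclei include the excitatory neurons by which the gene was chosen, so the value is a description. In the single classes the same difference was -1.06 ± 0.19 in inhibitory neurons, -3.42 ± 0.56 in astrocytes and -2.65 ± 0.54 in oligodendrocytes. None of these was called by the main edgeR test, while some alternatives called interactions of member and class pairs.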

How the results depend on the processing

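Leaving out 1 library gave 6 to 13 called pairs of a member and a class at 6 months, 1 to 6 at 12 months, 1 to 5 and 0 to 4 window pairs, 0 to 3 interactions and 0 to 1 pairs between WT ages, while pairs between 3xTg-AD ages stayed at 0 under every alternative. Without striatal markers, 3 member pairs were called at 12 months, 1 had an interaction and 1 differed between WT ages. DESeq2 called 7 window pairs at 6 months, 2 at 12 months, 4 interactions and 6 pairs between WT ages. With no filter, 2 window pairs were called at 12 months, 3 interactions and 6 pairs between WT ages, and with all 12 libraries in 1 fit 3 window pairs at 12 months and 4 pairs between WT ages. The stricter gate left 0 window pairs at 12 months, and a 3 Mb window held 13 at 6 months and 6 at 12 months. Shares of all genes under these alternatives are not given here, so the counts are descriptions. The cause of these shifts was not tested.

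Signs that turned belong to values that were not called. With thinned counts Mill2 in astrocytes at 12 months was -0.14 and Nanos2 in inhibitory neurons between WT ages 0.014 on the log2 scale, and without striatal markers Gipr in inhibitory neurons at 12 months was -0.37. With 1 library left out, 12-month values ranged from -0.28 to 0.18 for Ppm1n and -0.013 to 0.41 for Mill2 in all nuclei, -0.31 to 0.26 for Mill2 in astrocytes, and -0.14 to 0.69 for Ppm1n and -0.61 to 0.26 for Ceacam20 in excitatory neurons. Values between WT ages ranged from -0.20 to 0.00487 for Nanos2 in excitatory neurons, -0.13 to 0.15 for Nanos2 in inhibitory neurons and -0.28 to 0.17 for Gipr in oligodendrocytes. No paired analysis was possible because the groups share no replicate numbers. Depth limits microglia, where no member could be tested.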
